A study of Mus musculus with 7 samples.

Results

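The constitutive proteasome genes are those whose single gene symbol in the platform annotation begins with Psma, Psmb, Psmc or Psmd followed by a number, leaving out the interferon-inducible Psmb8, Psmb9 and Psmb10. They were represented by 64 of 22626 probe sets and by 35 of 12393 named genes. Expression was measured on 1-colour arrays, 3 labelled as transplant tumour of Met1 and 4 of DB7, mouse mammary tumour lines from animals transgenic for polyoma middle T. As background, tumours of Met1 metastasise readily and those of DB7 seldom, and the middle T of DB7 is mutated at docking sites for signalling proteins. Both groups therefore share a middle T transgene, driven in such mice by a mammary tumour virus promoter, and each line stands for 1 source, so that metastatic behaviour, transgene form and any other difference between the lines cannot be told apart. Host strain, age, passage and any treatment of the animals are left unstated by the labels, and the series' design text speaks of outcrossed animals where the sample labels name transplants.

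The proteasome degrades proteins that carry ubiquitin chains. Its core particle is a barrel of stacked rings: outer alpha rings, which gate the entry of substrates, and inner beta rings, in which Psmb5, Psmb6 and Psmb7 carry the proteolytic sites. The regulatory particle caps the barrel. Its base, with a ring of ATPases (the Psmc genes), unfolds substrates, and its lid holds Psmd14, the enzyme that removes ubiquitin chains. Of the 35 genes, 14 encode the alpha and beta rings and 17 encode base and lid subunits. Psma8 encodes an alpha subunit of the testis. Psmd5, Psmd9 and Psmd10 match the symbol rule but encode assembly factors of the base, so they are described apart from the 31 subunits.

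All 31 subunit genes were detected on every array, with the probe set that represents each gene above the array median on all 7 arrays. Psma8 lay between 4.76 and 4.99 (log2) and Psmd10 between 6.18 and 6.66, and both failed the intensity filter, which asked for a value above the array median on at least 3 arrays. Each gene was represented by whichever of its tested probe sets was brightest on average. Of the 49 member probe sets tested, 11 were lower and 4 higher in Met1, against 17.6% and 13.4% of all tested probe sets. Levels of different probe sets are not comparable with each other, so each gene is compared only between the lines.

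The arrays showed the epithelial genes of their labelled tissue: 6 of 7 listed markers (Epcam, Cdh1, Krt8, Krt18, Krt19, Cldn4 and Krt7) lay above the array median on all 7 arrays. Their mean was 9.04 to 9.44 in Met1 and 9.83 to 9.95 in DB7, and 5 of the 6 tested were lower in Met1. The mean of 6 B and plasma cell genes was 7.18 in DB7 1 and 7.51 in DB7 4, against 5.73 to 6.05 on the other 5 arrays. The mean of 6 fibroblast genes ranged from 9.47 to 10.12 in Met1 and from 8.42 to 10.31 in DB7. The 3 germ cell markers lay at a mean of 3.39 to 3.56. In bulk tumour, fewer cells of a type and less RNA per cell cannot be told apart. The part of these cell type differences in the results below was not tested.

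Fewer than 1 in 3 proteasome subunit genes were lower in Met1, most of them slightly, and 1 of them, Psmd12, was far lower. Of the 31 subunit genes, 9 were lower and 2 higher in Met1 past the threshold (limma with Benjamini-Hochberg adjustment over all tested probe sets, adjusted p under 0.05), and 20 did not pass. Among all 7482 tested genes, 17.9% were called lower and 13% higher. In the core particle 5 of 14 genes (35.7%) were lower and 0 higher, with 2 above zero at an unadjusted p under 0.05 in the same limma fit. In the regulatory particle 4 of 17 (23.5%) were lower and 2 higher. The share of regulatory particle calls is thus near that of all genes in both directions, and that of the core particle stands higher for lower calls on a count of 5.

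The median difference, Met1 minus DB7 on the log2 scale, was -0.20 over the core particle and -0.10 over the regulatory particle, beside -0.04 over all tested genes. A difference below zero was found in 10 of 14 core and 15 of 17 regulatory particle genes, against 57.4% of all tested genes. The values of the 2 lines did not overlap, with Met1 below, for 7 core and 7 regulatory particle genes (23% of all tested genes), and with Met1 above for 2 regulatory particle genes (16.2% of all). Psmd12 aside, the other 30 subunit genes differed by -0.51 to 0.51. Thus a single gene passed a 2-fold difference in the complex, where 5.44% of all tested genes were called at that size.

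The counts depended on single arrays. Without Met1 3, core calls lower in Met1 numbered 2 and regulatory calls 1. Without Met1 1 they were 3 and 2, and without DB7 2 or DB7 3 the regulatory particle kept a count of 2 lower. The regulatory count higher in Met1 was 1 without Met1 1, Met1 2, DB7 2 or DB7 3, and the core count higher was 1 without DB7 2. Without DB7 1 and DB7 4, the arrays with high B cell genes, 5 core and 6 regulatory genes were lower and 1 regulatory gene higher, with medians of -0.28 and -0.21. Under quantile normalization 9 subunit genes were lower and 4 higher, 2 of those 4 in the core particle.

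**Figure D1:**
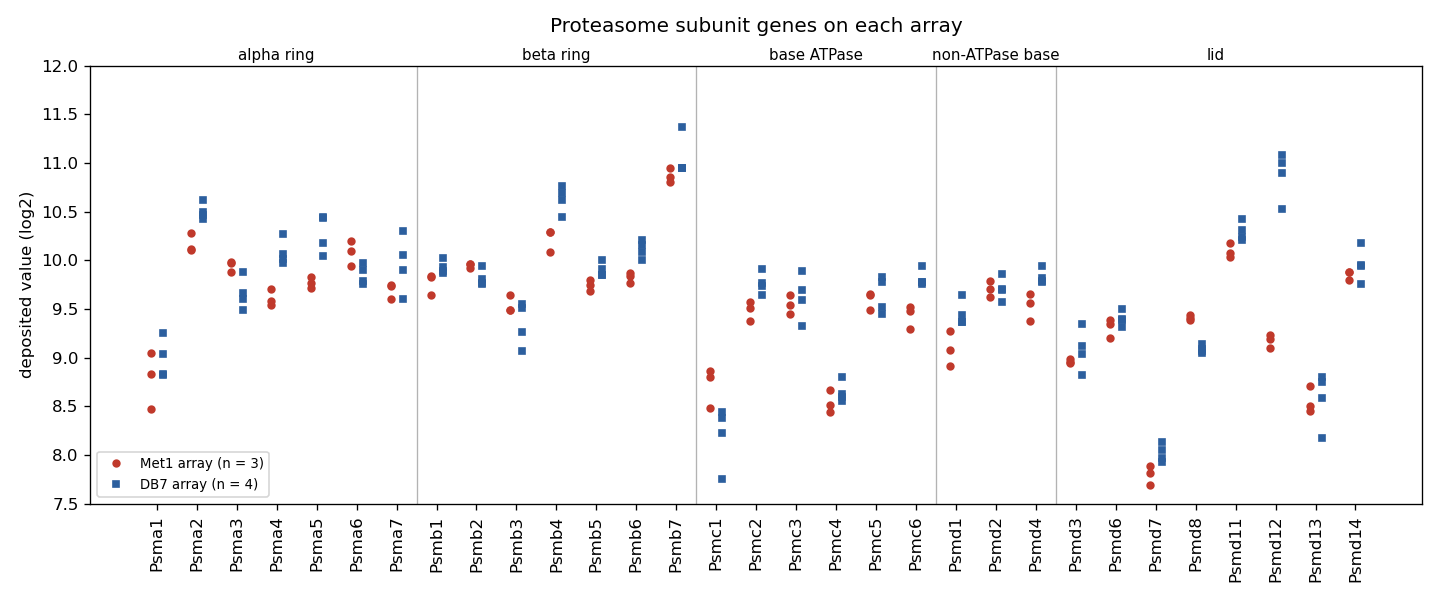
Deposited log2 value (vertical axis) of each of the 31 subunit genes on each array, grouped by ring or subcomplex; circles are the 3 Met1 arrays and squares the 4 DB7 arrays. Psmd12 stands apart, with Met1 between 9.10 and 9.23 and DB7 between 10.53 and 11.08, whereas the other genes differ little between the lines.

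The mean level of the complex per array overlapped between the lines. Over the core genes it averaged 9.86 (SD 0.08) in Met1 and 10.01 (SD 0.11) in DB7. Over the regulatory particle genes it averaged 9.22 (SD 0.09) in Met1 and 9.41 (SD 0.10) in DB7. The mean over the 14 core genes was 9.89, 9.92 and 9.76 in Met1 1, 2 and 3 and 9.87, 10.13, 10.03 and 10.003 in DB7 1, 2, 3 and 4. The groups overlapped because DB7 1, the lowest DB7 array, lay among the Met1 arrays. Over the 17 regulatory particle genes the means were 9.24, 9.30 and 9.13 in Met1 and 9.27, 9.49, 9.44 and 9.44 in DB7, again with DB7 1 lowest and with Met1 3 lowest of all. The 2 particles thus ranked the DB7 arrays alike at both ends, with DB7 2 highest and DB7 1 lowest in each. DB7 1 also carried the highest fibroblast mean, 10.31, against 8.42 to 9.58 on the other DB7 arrays. Its means of 4 endothelial and 2 adipocyte genes, 7.65 and 9.29, were likewise the highest of all arrays. In Met1 the order was different: Met1 2 had the highest fibroblast mean of that line, 10.12, and also its highest core and regulatory particle means. A link between these means was not tested.

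Psmd12, a scaffold subunit of the lid, showed the clearest difference of the complex. It measured 9.19, 9.23 and 9.10 in Met1 and 10.53, 11.08, 11.004 and 10.90 in DB7. All Met1 arrays lay farther below the lowest DB7 array than the DB7 arrays were spread among themselves. The difference was -1.71 (SE 0.13), a 3.26-fold lower level in Met1 (limma, adjusted p = 3.74e-05; n = 3 and 4). It ranked 48 by size among the tested genes with a difference below zero. The call held in each of the 18 alternatives that tested Psmd12, with differences of -1.87 to -1.64 and adjusted p between 5.44e-06 and 0.00108. The gene rests on 1 probe set, whose identifier marks it as matching several transcripts, so it was not measured in the alternative that leaves such probe sets out.

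Promoter sequences were found in the RefSeq promoter table (GRCm38.p6) for 25 of the 31 subunit genes, and the 250 bases before each listed start were searched on both strands for 3 motifs. A match is a description and not a bound site. The ETS core motif CCGGAAG was present in 8 of 14 regulatory particle genes and 1 of 11 core genes, against 16.5% of 6061 tested genes with an entry. The antioxidant response core TGACNNNGC, the motif read by the protein of Nfe2l1, was present in 4 of 25 (Psmb5, Psmb6, Psmc6 and Psmd12; 16%), against 13.8% of tested genes. The NF-Y motif CCAAT was present in 10 of 25 (40%), against 40.3% of tested genes. The stretch before Psmd12 is shown because this gene carries the largest difference, and capitals mark the TGACNNNGC match near its distal end and the ETS match near the start, both on the strand opposite to the gene (chr11:107479278-107479527, plus strand).

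Psmd12: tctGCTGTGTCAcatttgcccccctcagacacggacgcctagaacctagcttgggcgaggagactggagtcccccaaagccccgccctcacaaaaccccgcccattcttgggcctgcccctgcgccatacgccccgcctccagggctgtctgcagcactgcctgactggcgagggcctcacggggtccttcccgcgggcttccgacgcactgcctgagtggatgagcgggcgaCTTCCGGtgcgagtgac

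The ETS matches of the 8 regulatory particle genes are shown because this motif separated the 2 particles in number. Each is given 5′ to 3′ on the strand of the gene with up to 12 bases on either side, cut at the transcription start, and capitals mark the match. Psmc2 has 2 listed starts with a match before each.

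Psmc1 (chr12:100110162-100110192, plus strand): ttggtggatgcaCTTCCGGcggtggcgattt
Psmc2 start 1 (chr5:21785179-21785209, plus strand): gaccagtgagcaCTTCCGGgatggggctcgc
Psmc2 start 2 (chr5:21786711-21786741, plus strand): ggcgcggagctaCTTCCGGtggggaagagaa
Psmc6 (chr14:45329712-45329742, plus strand): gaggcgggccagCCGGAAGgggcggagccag
Psmd11 (chr11:80428592-80428614, plus strand): gcgagggcgggtCTTCCGGgtgt
Psmd12 (chr11:107479499-107479527, plus strand): atgagcgggcgaCTTCCGGtgcgagtgac
Psmd2 (chr16:20651614-20651644, plus strand): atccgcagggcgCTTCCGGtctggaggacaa
Psmd4 (chr3:95042721-95042751, minus strand): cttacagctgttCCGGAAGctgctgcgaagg
Psmd6 (chr14:14120972-14121002, minus strand): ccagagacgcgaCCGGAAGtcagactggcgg

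These 8 genes did not move together. Psmc6, Psmd4 and Psmd12 were lower in Met1, Psmc1 was higher, and Psmc2, Psmd2, Psmd6 and Psmd11 had differences of -0.28, -0.0029, -0.09 and -0.20 by their brightest probe sets, without passing (limma, adjusted p = 0.0509, 0.985, 0.49 and 0.115). The 4 genes with the TGACNNNGC motif, Psmb5, Psmb6, Psmc6 and Psmd12, had differences of -0.16, -0.29, -0.38 and -1.71, and 3 of the 4 were called lower, beside 9 of all 31 subunit genes and 17.9% of all tested genes. A difference below zero, as in all 4, was found in 25 of the 31 subunit genes.

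The rest of the lid did not share this difference. The other 7 lid genes had a median of -0.10, with 1 called higher and 0 lower (limma; 2 below zero at an unadjusted p under 0.05), and their mean per array was 9.10 to 9.19 in Met1 and 9.12 to 9.27 in DB7. Psmd8, a lid subunit that joins late in lid assembly, went the other way. It measured 9.44, 9.40 and 9.39 in Met1 and 9.07, 9.05, 9.14 and 9.09 in DB7, a tight and non-overlapping separation. Psmd8 was 1.25-fold higher in Met1 (difference 0.32, SE 0.07; limma, adjusted p = 0.00949). Psmd7, the inactive partner of Psmd14, measured 7.81, 7.89 and 7.69 against 7.93, 8.13, 8.06 and 7.97 and did not pass (difference -0.23; adjusted p = 0.07), although it was called lower in 2 of 19 alternatives. Psmd14 itself differed by -0.10 (SE 0.11), Psmd3 by -0.12, Psmd6 by -0.09 and Psmd13 by -0.02, with overlapping groups.

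Psmd11, a lid subunit that links the lid to the alpha ring, gave different answers by probe set. Its brightest probe set differed by -0.20 and did not pass (limma, adjusted p = 0.115). A dimmer one was lower in Met1, at 7.62, 7.78 and 7.56 against 7.78, 8.04, 7.98 and 7.91 in DB7 (difference -0.28; adjusted p = 0.0481). A further one was higher, at 9.39, 9.40 and 9.14 against 8.24, 8.73, 8.95 and 9.05 (difference 0.57; adjusted p = 0.0421), and the last tested one differed by -0.02. No direction is given for Psmd11 here. The counts, medians and figures nevertheless use its brightest probe set, which lies below zero without overlap. It was the only one of 13 member genes with several tested probe sets whose probe sets passed in opposite directions.

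The alpha ring held the largest core differences. Psma5, an alpha subunit, measured 9.83, 9.77 and 9.71 in Met1 and 10.05, 10.44, 10.44 and 10.18 in DB7. It was 1.42-fold lower in Met1 (difference -0.51, SE 0.11; limma, adjusted p = 0.00912), while its second tested probe set differed by -0.30 and did not pass. Psma4 measured 9.58, 9.70 and 9.54 against 9.97, 10.27, 10.06 and 10.01, and was 1.39-fold lower (adjusted p = 0.00604). The groups did not overlap in either gene, and the calls held in each of the 19 alternatives that measured Psma4 and the 18 that measured Psma5. Psma2 measured 10.11, 10.28 and 10.11 against 10.43, 10.62, 10.50 and 10.47 (difference -0.34, SE 0.09; adjusted p = 0.0167). Its call was lost without Met1 1 (0.0684) and without Met1 3 (0.075).

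The other alpha genes did not pass. Psma3 and Psma6 lay above zero, by 0.29 (limma, adjusted p = 0.0652) and 0.22 (adjusted p = 0.108). Psma3 was called higher in 3 of 18 alternatives (0.0158 without DB7 2) and Psma6 in 3 of 19, and the second tested probe set of Psma6 was higher in Met1 by 0.39 (adjusted p = 0.0119). Psma1 and Psma7 differed by -0.20 and -0.27. Psma7 spread widely in DB7, from 9.61 to 10.30, and without DB7 1 it was called lower (difference -0.39; adjusted p = 0.0316).

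In the beta ring the structural subunit Psmb4 differed most. It measured 10.29, 10.29 and 10.08 in Met1 and 10.45, 10.76, 10.69 and 10.62 in DB7, a 1.33-fold lower level in Met1 without overlap (difference -0.41, SE 0.10; limma, adjusted p = 0.014; 0.0693 without Met1 3). Psmb6, the subunit with caspase-like activity, measured 9.84, 9.87 and 9.77 against 10.01, 10.21, 10.09 and 10.16. Its 1.22-fold lower level passed narrowly (difference -0.29; adjusted p = 0.0263), but it did not pass under median centring (0.0579) or when Met1 1 (0.0702), Met1 2 (0.0671), Met1 3 (0.11) or DB7 4 (0.0525) was left out. Psmb5, the subunit with chymotrypsin-like activity, measured 9.75, 9.80 and 9.68 against 9.91, 9.85, 10.01 and 9.85. Its groups were separate, yet the difference of -0.16 (SE 0.08) did not pass (adjusted p = 0.174).

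Psmb7, with trypsin-like activity, measured 10.85, 10.95 and 10.80 in Met1 and 10.95, 11.37, 10.95 and 10.95 in DB7 (difference -0.19, SE 0.12; limma, adjusted p = 0.256). Its groups overlapped, and DB7 2 alone stood above. Met1 2, DB7 1, DB7 3 and DB7 4 carried the identical value of 10.95 to 6 decimals, and 42.2% of all probe sets had a value shared by at least 2 arrays. Psmb1 differed by -0.16, and Psmb2 and Psmb3 by 0.13 and 0.19, without passing.

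**Figure D2:**
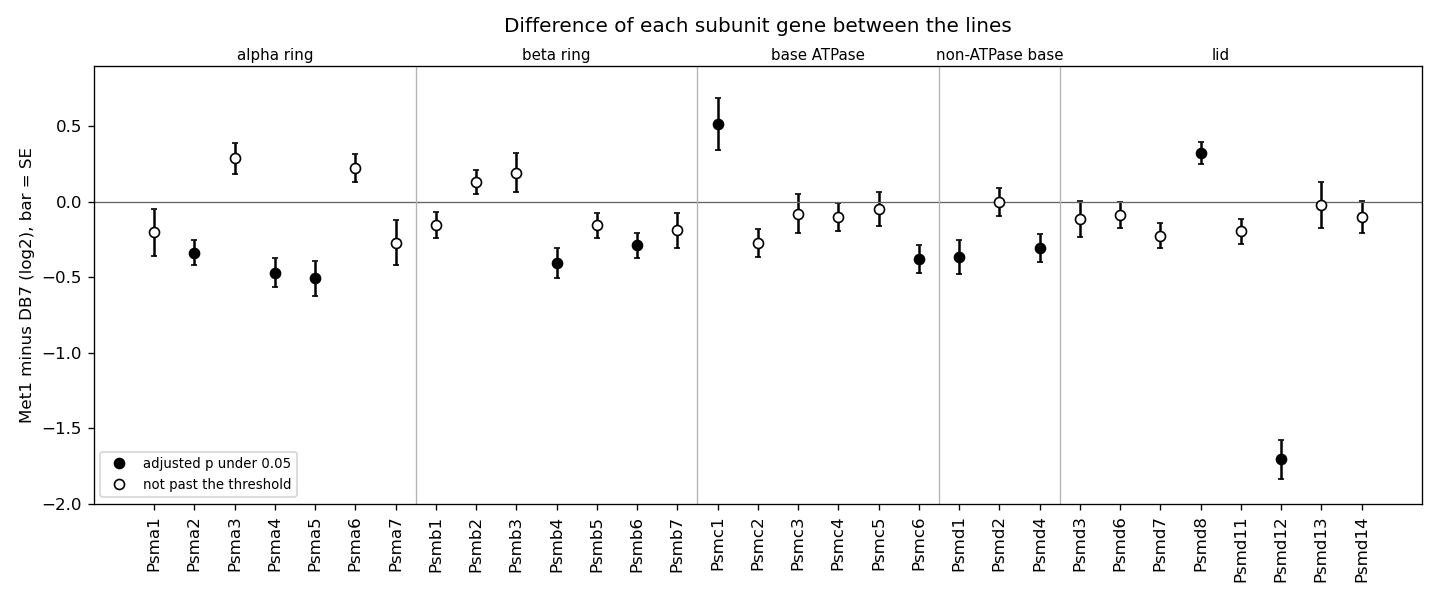
Difference of each subunit gene, Met1 minus DB7 on the log2 scale (vertical axis), with its standard error; filled points passed an adjusted p of 0.05 and open points did not. Psmd12 lies at -1.71, and the other 30 genes lie between -0.51 and 0.51, with 8 of them filled below zero and 2 above.

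Among the 6 ATPases of the base, 1 was lower and 1 higher in Met1. Psmc6 measured 9.48, 9.52 and 9.29 in Met1 and 9.78, 9.77, 9.75 and 9.94 in DB7 (difference -0.38, SE 0.09; limma, adjusted p = 0.0127; 0.0673 without Met1 3). Psmc1 measured 8.80, 8.87 and 8.48 against 7.76, 8.38, 8.22 and 8.44, where the lowest Met1 array lay just above the highest DB7 array. Its 1.43-fold higher level in Met1 (difference 0.51, SE 0.17) passed at 0.0478. Psmc1 did not pass without the intensity filter (0.0678), with array weights (0.0563), or when Met1 1 (0.147), Met1 2 (0.171), DB7 2 (0.052), DB7 3 (0.0918) or both DB7 1 and DB7 4 (0.0534) were omitted. Psmc2 measured 9.51, 9.57 and 9.38 against 9.65, 9.77, 9.91 and 9.73, a separation without overlap that missed the threshold (difference -0.28; adjusted p = 0.0509). It was called lower in 6 of 19 alternatives, among them array weights (0.0196), omission of DB7 1 (0.0318) and a fit over genes alone (0.0472). Psmc3, Psmc4 and Psmc5 differed by -0.08, -0.10 and -0.05 with overlapping groups.

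The non-ATPase subunits of the base include Psmd1 and Psmd2, large scaffolds that bind ubiquitin-like domains, and Psmd4, a ubiquitin receptor. Psmd1 measured 9.08, 9.27 and 8.92 in Met1 and 9.37, 9.64, 9.44 and 9.37 in DB7 (difference -0.37, SE 0.11; limma, adjusted p = 0.0347). Psmd4 measured 9.56, 9.65 and 9.37 against 9.78, 9.82, 9.95 and 9.78 (difference -0.31, SE 0.09; adjusted p = 0.0361). Both were separate between the lines, but Psmd1 fell short of the threshold when omitting Met1 1 (0.0985), Met1 3 (0.15), DB7 2 (0.0638) or DB7 3 (0.0685) and under median centring (0.0711). Psmd4 fell short when omitting Met1 1 (0.0828), Met1 3 (0.158), DB7 2 (0.0541) or DB7 3 (0.085), under median centring (0.0649) and with the mean of its probe sets (0.0886). Psmd2 measured 9.71, 9.79 and 9.62 against 9.58, 9.70, 9.86 and 9.71, with a difference of -0.0029 (SE 0.09).

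Of the assembly factors, Psmd5 was lower in Met1, at 8.71, 8.58 and 8.54 against 8.76, 8.91, 9.06 and 9.11 in DB7 (difference -0.35, SE 0.10; limma, adjusted p = 0.0305). It did not pass when Met1 2 (0.106), Met1 3 (0.121), DB7 3 (0.0758) or DB7 4 (0.0661) was left out. Psmd9 measured 7.63, 7.59 and 7.63 against 7.64, 7.67, 7.69 and 7.71 and did not pass (difference -0.06). Psmd10 measured 6.66, 6.51 and 6.43 against 6.18, 6.603, 6.51 and 6.51 and was not tested.

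The immunoproteasome subunits, which replace the catalytic subunits in cells exposed to interferon gamma, had larger differences than the subunits they replace. Psmb9, the counterpart of Psmb6, measured 8.72, 8.75 and 8.05 in Met1 and 10.72, 10.38, 10.65 and 10.67 in DB7, and Psmb8, the counterpart of Psmb5, 9.96, 9.98 and 9.13 against 11.31, 11.12, 11.57 and 11.20. Met1 had a 4.28-fold lower level of Psmb9 (limma, adjusted p = 5.56e-05) and a 3.05-fold lower level of Psmb8 (0.000579), while the folds of Psmb6 and Psmb5 were 1.22 and 1.12. Psmb10, the counterpart of Psmb7, measured 9.17, 9.07 and 8.84 against 9.57, 9.11, 9.72 and 10.06 and did not pass (difference -0.59; adjusted p = 0.0513), although it was called lower in 6 of 19 alternatives (0.00775 without DB7 2). The difference between the pairs was not itself tested.

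**Figure D3:**
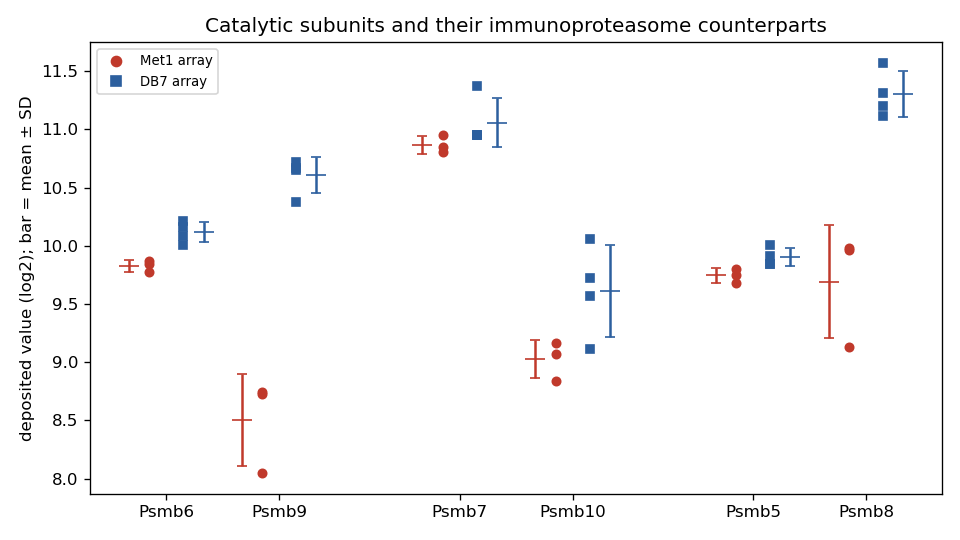
Deposited log2 value (vertical axis) of the catalytic beta subunits and of the immunoproteasome subunits that replace them, on 3 Met1 arrays (circles) and 4 DB7 arrays (squares); bars give mean ± SD. Within each gene, Psmb9 and Psmb8 separate widely between the lines and Psmb6 and Psmb5 narrowly, while heights of different genes are not comparable.

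The other genes of the pathway were taken from lists of 39 genes, of which 28 had a probe set with that symbol alone. All 28 were tested, and 4 (14.3%) were higher and 5 (17.9%) lower in Met1, with a median of -0.09. These shares are near those of all tested genes, 13% higher and 17.9% lower. A single call in a short list is to be read beside these shares. Of 5 genes for core assembly 1 was lower. This was Psmg2, a chaperone of alpha ring assembly, at 7.44, 7.46 and 7.43 in Met1 and 7.76, 8.10, 7.91 and 7.89 in DB7 (difference -0.47; limma, adjusted p = 0.0039). Psmg1, its partner in a dimer, differed by 0.26 and Psmg4 by -0.19, and Pomp, the maturation factor of the core, by -0.05 (SE 0.09), none of them passing. Of 4 genes for activators and an inhibitor, Psme3, the nuclear activator, was lower in Met1 (difference -0.34; adjusted p = 0.0175), but not without Met1 1 (0.0564), Met1 2 (0.0632) or Met1 3 (0.0651) or as a mean of its probe sets (0.396). Psme1, an interferon-inducible activator, and Psme4 differed by -0.41 and -0.16 without passing.

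Among 6 other subunits and bound enzymes of the regulatory particle, Uchl5, a deubiquitinase of the base, was lower in Met1. It measured 8.44, 8.47 and 8.53 in Met1 and 8.87, 9.92, 9.47 and 8.99 in DB7, where the spread was wide (difference -0.83, SE 0.23; limma, adjusted p = 0.0221). It missed the threshold when Met1 1 (0.0761), Met1 2 (0.0744), Met1 3 (0.0631) or DB7 3 (0.0601) was left out. Ube3c and Ube3a, ubiquitin ligases, differed by -0.22 and -0.33 and did not pass. Usp14, the other deubiquitinase, differed by 0.02 by its brightest probe set and by -0.42 by another, which passed (limma, adjusted p = 0.0309). Txnl1, of the same list, differed by -0.19 by its brightest probe set (adjusted p = 0.258). Another probe set of Txnl1 was lower in Met1 without overlap (difference -0.55, adjusted p = 0.0121).

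Among the genes that act upstream of proteasome transcription, Nploc4, Ngly1 and Vcp were higher in Met1. Nfe2l1 encodes the transcription factor that induces proteasome genes after it has been extracted from the endoplasmic reticulum by Vcp with Nploc4 and Ufd1 and deglycosylated by Ngly1. Of 6 tested genes in this list these 3 were called higher, against 13% of all tested genes, and 0 lower (limma; 0 below zero at an unadjusted p under 0.05). Nploc4 measured 9.20, 9.01 and 8.75 in Met1 and 7.48, 7.51, 7.80 and 7.85 in DB7, a 2.51-fold higher level (adjusted p = 0.000163). Vcp measured 10.83, 10.81 and 10.71 against 10.06, 10.40, 10.26 and 10.36, and was 1.42-fold higher (adjusted p = 0.00456). Ngly1 measured 7.69, 7.60 and 7.74 against 7.11, 7.25, 6.71 and 6.82, and was 1.63-fold higher (adjusted p = 0.00391). The groups of all 3 genes were separate. Nfe2l1 itself measured 8.69, 8.56 and 8.64 against 8.56, 8.36, 8.55 and 8.58 and did not pass (difference 0.12, SE 0.09; adjusted p = 0.34), and neither did Nfe2l2 (adjusted p = 0.144) and Ufd1 (0.803).

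Of 4 shuttle genes, which carry ubiquitinated proteins to the proteasome, Ubqln2 was higher in Met1 by 0.59 (limma, adjusted p = 0.016; 0.0677 without Met1 2). By its brightest probe set Ubqln4 differed by -0.34 (limma, adjusted p = 0.0541, called in 5 of 19 alternatives, with 0.0348 without Met1 1). Its other tested probe set was lower in Met1 without overlap (difference -0.62, adjusted p = 0.00885). Ubqln1 differed by -0.11 by its brightest probe set and by 0.24 by another, and neither passed.

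Related or similarly abundant complexes gave a mixed picture. For comparison, 17.9% of all tested genes were called lower and 13% higher, with a median of -0.04. The COP9 signalosome, whose subunits are relatives of the lid, had 2 of 9 genes lower and 1 higher, with a median of -0.12. Its one large difference was that of Gps1, which was higher in Met1 by 1.26 (limma, adjusted p = 9.98e-05). The translation factor eIF3, also a relative of the lid, had 0 of 11 genes called, with 1 above and 2 below zero at an unadjusted p under 0.05 in limma and a median of -0.10. The cytosolic chaperonin, another stacked-ring complex, had 4 of 8 genes lower and 0 higher, with 0 above and 5 below zero at an unadjusted p under 0.05, and a median of -0.26. The core particle median of -0.20 lies within the range of these complexes.

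The subunit genes lie on many chromosomes, several of which had unequal shares of higher and lower genes. Among these, chromosomes 3 and 12 hold 3 subunit genes each. Gene order follows RefSeq on GRCm38.p6. On chromosome 12, 49.6% of 252 tested genes were higher and 4.37% lower in Met1. Its 3 subunit genes, Psma3, Psma6 and Psmc1, all lay above zero, and they make up 3 of the 6 subunit genes that did so. The median difference of the 20 nearest tested genes was 0.26 around Psma3, 0.36 around Psma6 and 0.26 around Psmc1, beyond 0.2 in no other subunit gene. On chromosome 3, 36.5% of 381 tested genes were lower and 8.66% higher. All 3 of its subunit genes, Psma5, Psmb4 and Psmd4, were called lower, and the median over the whole chromosome was -0.16. The 20 tested genes nearest to each had medians of -0.04, -0.03 and -0.05. Among them, 5, 4 and 6 were called lower and 3, 2 and 2 higher. The sets of Psmb4 and Psmd4 share Bnipl and are thus not separate. A link between the subunit genes and their chromosomes or neighbours was not tested. Chromosomes with 1 subunit gene were unequal too, among them chromosome 4 (27% higher, 6.52% lower), 16 (19% and 7.85%) and 5 (5.27% and 19%). Psmb2 of chromosome 4 differed by 0.13, and 18 of its 20 nearest tested genes lay above zero (median 0.14).

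Psmd12 lies on chromosome 11, where 18.1% of 680 tested genes were called lower in Met1. Helz, an RNA helicase gene and the next tested gene on one side, had a difference of -0.79 (limma, adjusted p = 9.25e-05), Nol11 of -0.43 (0.0137), Amz2 of -0.57 (0.000648) and Slc16a6 of -1.91 (0.000142). Of its 20 nearest tested genes these 4 were called lower and 1, Tex2, higher, and the median of the 20 was -0.09. This number of lower calls is near the share on the whole chromosome. Gps1 and Nploc4 lie elsewhere on chromosome 11, in stretches where 18 and 15 of the 20 nearest tested genes were higher, with medians of 1.09 and 0.67. The other 5 subunit genes of chromosome 11, Psmb3, Psmb6, Psmc5, Psmd3 and Psmd11, had neighbour medians of -0.06 to 0.13. Some of these sets of neighbours overlap. Psmc5 and Psmd12 are each among the neighbours of the other, and Psmb3 and Psmd3 share Stac2.

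**Figure D4:**
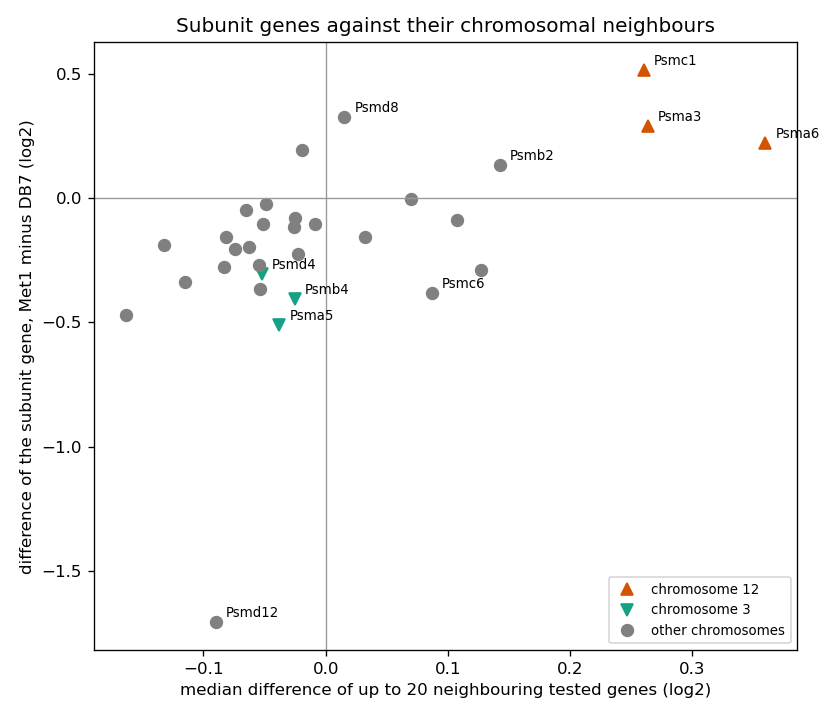
Difference of each subunit gene (vertical axis) against the median difference of the up to 20 nearest tested genes on its chromosome (horizontal axis), both Met1 minus DB7 on the log2 scale. The 3 genes of chromosome 12 (triangles) stand at the right with neighbour medians of 0.26 to 0.36, and Psmd12 lies at -1.71 with a neighbour median of -0.09.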

How the data were processed

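The authors deposited log2 probe set values, as judged from their range; no source here states the log base. The submitters' processing notes name MAS5 and RMA without saying which gave the values. If RMA gave them, differences near the floor are compressed. Values were used as deposited.

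After 64 control probe sets were left out, 11704 of 22626 probe sets passed the intensity filter described with the results. The comparison of the lines used limma 3.58.1 (R 4.3.3): a linear model of the 7 arrays on line alone, with moderated variances that follow mean intensity, two-sided p-values and Benjamini-Hochberg adjustment over tested probe sets. Nothing in the labels says that arrays came from separate animals, so the spread behind each p-value is that of these arrays and could be technical. The number of arrays limits the precision. The fit was tested on simulated data.

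Every member gene was accounted for by symbol. Values on all arrays were given for the 3 genes with the smallest p in each ring and subcomplex. They were also given for the catalytic and immunoproteasome subunits, the assembly factors, Nfe2l1 and genes whose probe sets passed in opposite directions. The same rule named Pomp and the 3 genes with the smallest p in each other pathway list. Of these, only Psmg2, Uchl5, Nploc4, Ngly1 and Vcp have their values on all arrays printed, and the rest have differences. Further values given outside this rule (Nfe2l2, Ufd1, Usp14, Gps1, the neighbours of Psmd12 and single results of other members) were chosen after they were seen. The same holds for Txnl1 and for the dimmer probe sets of Usp14, Ubqln1 and Ubqln4. The members, lists and alternatives were chosen with earlier results of these data known. The lists' ubiquitin genes, activating enzymes and 5 others had no probe set with that symbol alone and were not analysed here. Probe set names come from GEO's platform annotation. Alternatives covered normalization, the filter, the variance model, array weights, which probe set stands for a gene, omission of each array and the replicate number as a block. Fit and adjustment over the representative probe set of each gene, and omission of DB7 1 and DB7 4, were added after seeing the data.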

Additional observations from a re-analysis of the deposited data

Results flagged for a closer look

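In DB7, 2 member genes had 1 array far from the other 3, by the gap to the nearest array as a share of the group's range (Dixon's criterion for 4 arrays). For Psmb7 this share was 1, since DB7 1, DB7 3 and DB7 4 carried the same value of 10.95 and DB7 2 measured 11.37. For Psmc6 it was 0.845, with DB7 4 at 9.94 against 9.75 to 9.78. Chance alone gives such a gap in about 1 of 20 groups, and 35 member genes were examined.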

How the results depend on the processing

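The core count lower in Met1 (5) stayed within 1.5 times in the alternatives other than the replicate block (3) and the fits that left out an array (2 to 6). The core count higher (0) became 2 under quantile normalization. It was 1 with array weights, with the mean of the probe sets of a gene and without probe sets marked as matching several transcripts. With an array left out it was 0 to 1. The regulatory count lower (4) became 2 under median centring and 2 with the replicate block (1 to 5 with an array left out). It was also 2 without probe sets marked as matching several transcripts. There 12 of the 17 genes were tested, and Psmc6, Psmd4 and Psmd12 were not among them. The regulatory count higher (2) became 1 without the intensity filter, with array weights, with the replicate block and without DB7 1 and DB7 4 (1 to 2 with an array left out). The core median ranged from -0.26 to -0.14 and the regulatory median from -0.17 to -0.09 with an array left out. Without DB7 1 and DB7 4 the regulatory median was -0.21. Usp14 did not pass in the main fit (difference 0.02). Without probe sets marked as matching several transcripts, another probe set stands for Usp14, and it was called lower (-0.42, limma, adjusted p = 0.0302). The cause of the other changes was not tested. Median centring moved the median of all genes from -0.04 to near zero. Same-numbered arrays did not deviate together (correlations of -0.17, -0.05 and 0.02). Differently numbered arrays gave correlations of -0.23 to 0.21, so with so few arrays this cannot settle whether the numbers pair the samples. With the replicate block the calls of Psmb4, Psmb6, Psmc6, Psmd4, Psmd5 and Psmd8 were lost (adjusted p = 0.0518, 0.0886, 0.055, 0.1, 0.125 and 0.0543). Fit and adjustment over the representative probe set of each gene gave 5 core and 5 regulatory genes lower and 2 regulatory genes higher.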
